A study of Mus musculus with 12 samples.

Results

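Genes of the Sertoli cell were followed across wild-type, Sohlh1 knockout and Sohlh2 knockout mouse testes at postnatal day 7. The set was a list of 33 genes, made of transcription factors, hormones and their receptors, secreted proteins, junction genes and a few transcripts known mainly as Sertoli markers. Members were all probe sets annotated to exactly one of these genes. They came to 60 of 45037 non-control probe sets and covered 32 of the 33 genes. Trf, which encodes the iron carrier transferrin, had only a probe set annotated to more than one gene and was therefore not analysed. Of the 60 probe sets, 57 passed the filter on low values and were tested among 28694. The other 3, which were additional probe sets of Nr5a1, Sox9 and Inhba, read between 1.23 and 95.2 on every array.

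RNA of whole testis was hybridised to 12 single-colour arrays, 4 per genotype, with all animals of C57BL/6, 129S5, SvEvBrd hybrid background. Each array held a pool of 3 testes from different animals, so that the p-values below measure the spread between pools. The wild-type arrays were numbered 3, 4, 5 and 6, the Sohlh1 knockout arrays 2, 3, 4 and 5, and the Sohlh2 knockout arrays 1, 3-1, 4 and 5. Values are printed in that order throughout. The knockout groups are given in the labels as Sohlh1 -/- and Sohlh2 -/-, and how the alleles were built is not given in the sources used here.

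Sertoli cells are the somatic cells of the seminiferous tubule, and they surround and feed the germ cells. Sox9, Wt1 and Gata4 fix and maintain their identity, follicle-stimulating hormone drives their division before puberty through Fshr, and the anti-Müllerian hormone gene Amh is active in the immature cell. Later they are joined by tight junctions, made of claudins, occludin and Tjp1, that form the blood-testis barrier. Sohlh1 and Sohlh2 are basic helix-loop-helix factors of the spermatogonia that bind E-box sequences. The Sertoli cell genes thus describe the somatic neighbour of the cells in which these factors are known to work.

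Promoter sequence is shown for Tjp1, Ocln and Gja1, the junction genes with the smallest p-values in the Sohlh1 knockout, and for Fshr, whose promoter holds a well-known E-box. Each line gives the 150 bases before an annotated start site on the gene's own strand, from RefSeq on build GRCm38.p6, with the E-box CANNTG in capitals. The motif is matched by its own reverse complement, so 1 search covers both strands.
Tjp1, chr7:65371245-65371394, minus strand: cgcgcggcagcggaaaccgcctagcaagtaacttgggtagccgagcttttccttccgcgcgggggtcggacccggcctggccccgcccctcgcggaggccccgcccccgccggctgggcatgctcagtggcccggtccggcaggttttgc
Ocln, first start site, chr13:100552719-100552868, minus strand: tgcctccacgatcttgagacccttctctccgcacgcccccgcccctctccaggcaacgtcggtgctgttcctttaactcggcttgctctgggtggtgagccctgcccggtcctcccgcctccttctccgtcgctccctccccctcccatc
Ocln, other start site, chr13:100552499-100552648, minus strand: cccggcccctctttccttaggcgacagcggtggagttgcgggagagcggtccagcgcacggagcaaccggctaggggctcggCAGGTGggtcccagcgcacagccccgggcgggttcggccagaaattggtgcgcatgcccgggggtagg
Gja1, chr10:56377150-56377299, plus strand: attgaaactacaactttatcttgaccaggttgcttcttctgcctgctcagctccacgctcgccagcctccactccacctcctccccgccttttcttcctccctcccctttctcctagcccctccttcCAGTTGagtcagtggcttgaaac
Fshr, chr17:89200676-89200825, minus strand: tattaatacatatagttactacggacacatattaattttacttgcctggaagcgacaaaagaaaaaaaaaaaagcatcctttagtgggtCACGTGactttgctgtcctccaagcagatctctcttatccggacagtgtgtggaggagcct

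The stretch before the Tjp1 start site and that before the first Ocln start site had no match to these letters. The Fshr stretch had the palindrome CACGTG, 61 bases before the start site. In the Gja1 stretch the match lay 23 bases before the start, and in the other Ocln stretch 68 bases before it. Over the 250 bases before a start site, 13 of 23 windows of 22 member genes held at least 1 E-box (56.5%). Of all 32851 such windows in the table, 66.2% did. A match describes the letters of the window and is no evidence of binding.

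The targeted genes did not follow the label on 2 arrays, called below the arrays of doubted label. The Sohlh1 probe set read 1125 to 1233 on the wild-type arrays and 50.2 to 104 on 3 of the Sohlh1 knockout arrays, but 595 on the array labelled Sohlh1 knockout 5. The Sohlh2 probe set read 885 to 1200 in wild type and 73.2 to 157 on 3 Sohlh2 knockout arrays, but 1847 on the array labelled Sohlh2 knockout 1. The other targeted gene departed from the rest of the group there too. The Sohlh2 probe set read 94.4 on the array labelled Sohlh1 knockout 5, against 1556 to 1783 on the other Sohlh1 knockout arrays. The Sohlh1 probe set read 126 on the array labelled Sohlh2 knockout 1, against 465 to 563 on the other Sohlh2 knockout arrays. By both genes each of these arrays thus read like the other knockout, and whether their labels were exchanged was not tested. The arrays were kept in the groups their labels give, so every knockout comparison below holds 1 array of doubted label in each knockout group. Where these probe sets lie relative to the deleted parts is not given in the sources used here. In addition, the ratio of 3′ to 5′ signal of the Gapdh and β-actin control probe sets, which rises when RNA is broken or labelled short, was 1.56 on Sohlh1 knockout 2 and 2.41 on the array labelled Sohlh2 knockout 1, against 0.987 to 1.08 on the other 10 arrays. The Sertoli markers Sox9, Amh, Fshr, Gata4, Wt1, Dhh, Clu, Cst9, Aard, Cldn11 and Inha read above the filter value of 48.6 on every array. Results below are given with and without these arrays, 3 in all, where that changes a call or a direction.

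With all 12 arrays, no Sertoli cell gene changed in either knockout, yet many lay slightly above wild type. In the Sohlh1 knockout, 0 of 57 probe sets passed an adjusted p of 0.05 (limma, Benjamini-Hochberg over all 28694), while 2.09% of all tested probe sets did. At an unadjusted p under 0.05, 12 were higher (21.1%) and 1 was lower (1.75%), against 6.99% and 7.95% of all tested. Their median log2 difference, on the scale of log2(signal + 14.2), was 0.17, against -0.003 over all tested, and 44 of the 57 lay above 0, against 49.5% of all tested. In the Sohlh2 knockout 0 of 57 passed, against 1.55% of all tested. Here 6 were higher (10.5%) and 1 lower (1.75%) at an unadjusted p under 0.05, against 6.43% and 7.06%, and the median was 0.12. Of the 57, 38 lay above 0, against 49.4% of all tested. With the 2 arrays of doubted label left out, 2 member probe sets passed in the Sohlh1 knockout (Tjp1 and Gja1) and 1 in the Sohlh2 knockout (Ocln). Of all 28694 tested, 3% and 1.6% passed in that fit. With only the array labelled Sohlh2 knockout 1 left out, 3 passed in the Sohlh1 knockout (Tjp1 and both of Ocln) and 1 in the Sohlh2 knockout (Ocln). There 4.31% and 1.75% of all tested passed. Both comparisons use the same 4 wild-type arrays, so a low or high wild-type value moves both. In whole testis RNA, fewer cells of a type and less RNA per cell cannot be told apart.

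Counted as 1 probe set per gene, 27 of 32 genes lay above wild type in the Sohlh1 knockout (28 after median centring of the arrays) and 21 of 32 in the Sohlh2 knockout (18 after quantile normalization, 23 after median centring, 26 without the array labelled Sohlh2 knockout 1). The sizes were small. The median over genes was 0.17 in the Sohlh1 knockout (0.11 to 0.21 across the scalings) and 0.10 in the Sohlh2 knockout (0.07 to 0.14). The median over all tested probe sets moved too, to 0.02 and 0.01 after quantile normalization and to 0.04 and 0.03 after median centring. Over all genes with 1 probe set each it was 0.03 and 0.02. The median residual SD between pools was 0.19 for the 32 genes, against 0.26 for all tested probe sets. By array, the median over the 57 probe sets ran from -0.06 to 0.04 in wild type, from 0.13 to 0.23 in the Sohlh1 knockout and from 0.06 to 0.16 in the Sohlh2 knockout, relative to the wild-type mean. Both knockout groups therefore lay above every wild-type array, while the median over all tested probe sets stayed between -0.02 and 0.03 on the 12 arrays. The wild-type arrays enter that mean themselves, which draws their medians toward 0. The closest knockout array, Sohlh2 knockout 5 at 0.06, lay little above wild type 6 at 0.04.

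**Figure D1:**
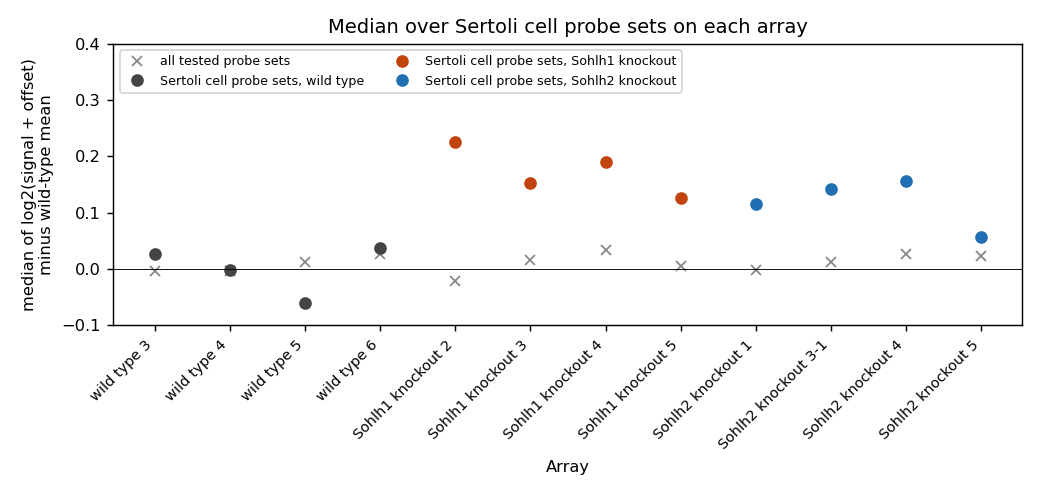
Median over the 57 tested Sertoli cell probe sets on each of the 12 arrays (circles), and over all 28694 tested probe sets (crosses), as log2(signal + offset) minus the wild-type mean. The circles of the 8 knockout arrays lie between 0.06 and 0.23, above the 4 wild-type circles, and the crosses stay between -0.02 and 0.03.

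Germ cell markers moved on the same arrays. Of 12 germ cell markers Uchl1 fell by 1.14 (adjusted p = 4.07e-05, limma) in the Sohlh1 knockout, Kit fell by 1.92 and Dmrtb1 fell by 2.51, while Gfra1, a receptor of undifferentiated spermatogonia, rose by 0.97. The same 4 changed in the Sohlh2 knockout, with log2 differences of -1.13 for Uchl1, -1.95 for Kit, -2.21 for Dmrtb1 and 1.01 for Gfra1. The summed signal of the 12 markers, none of them at 0, was 42660 to 49739 in wild type, 34623 to 38665 in the Sohlh1 knockout and 35493 to 39535 in the Sohlh2 knockout. The summed signal of the 32 Sertoli genes was 225189 to 269450, 265378 to 304061 and 246029 to 285900 in the same order. Array values were scaled by the submitters to a common trimmed mean, so each signal is relative to the rest of its array. The part of the germ cell markers in the Sertoli gene values was not tested.

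The transcription factors were close to wild type in both knockouts. In the Sohlh1 knockout, 7 of 7 genes lay above wild type under each scaling, with a median of 0.17, and in the Sohlh2 knockout 1 of 7 did (3 after median centring), with a median of -0.05. The negative Sohlh2 knockout median rested on 1 array: the median over the 7 was -0.26 on the array labelled Sohlh2 knockout 1 and 0.09 to 0.10 on the rest of its group. Without that array 4 of 7 genes lay above wild type, with a median of 0.05. None of the 7 passed the test in either comparison, and the smallest adjusted p was 0.368.

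Sox9, the factor that starts Sertoli cell differentiation, was read by 2 tested probe sets. The brighter, 1424950_at, read 1520, 1735, 1920 and 1863 in wild type, 1275, 2382, 2016 and 1600 in the Sohlh1 knockout and 885, 1903, 2050 and 2019 in the Sohlh2 knockout. Its lowest values lay on the arrays with the high control ratios, and the groups overlapped. The log2 difference was 0.01 in the Sohlh1 knockout (SE 0.24, 95% interval -0.50 to 0.53) and -0.11 in the Sohlh2 knockout (SE 0.24, interval -0.62 to 0.41). Without the array labelled Sohlh2 knockout 1 the latter was 0.18. The second Sox9 probe set, 1451538_at, read 1636, 1617, 1592 and 1501 in wild type, 1535, 1734, 1925 and 1962 in the Sohlh1 knockout and 1706, 1636, 1880 and 1913 in the Sohlh2 knockout. The Sohlh2 knockout values all lay above wild type by this probe set, the nearest pair by less than 1 signal unit. Its log2 difference was 0.17 in each knockout (adjusted p = 0.447 and 0.488, limma).

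Wt1, which maintains Sertoli identity, read 3824, 3685, 3200 and 3749 in wild type, 3477, 3558, 3942 and 4453 in the Sohlh1 knockout and 2635, 3707, 3863 and 3735 in the Sohlh2 knockout. Only the array labelled Sohlh2 knockout 1 stood below the wild-type range. The differences were 0.09 (interval -0.17 to 0.35) and -0.07 (interval -0.33 to 0.20), and the latter was 0.06 without that array.

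Gata4, a factor of the gonadal soma, read 3100, 2609, 2123 and 2612 in wild type, 2974, 2600, 2665 and 2930 in the Sohlh1 knockout and 2151, 3091, 2587 and 2393 in the Sohlh2 knockout. All 3 groups overlapped. The differences were 0.11 (interval -0.16 to 0.37) and -0.03 (interval -0.30 to 0.24). The latter turned to 0.05 when the array labelled Sohlh2 knockout 1 was left out, and to 0.01 after median centring. The second Gata4 probe set, 1418864_at, gave -0.15 (SE 0.35) and -0.28 (SE 0.35), so the probe sets differed in sign in the Sohlh1 knockout.

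Nr5a1, steroidogenic factor 1, had the smallest p of the transcription factors in both comparisons when each gene was read by its brightest probe set. It read 2576, 2124, 1986 and 1739 in wild type, 2537, 2415, 2380 and 2437 in the Sohlh1 knockout and 2740, 2231, 2290 and 2217 in the Sohlh2 knockout. Wild type spread widely, and its array 3 lay above every Sohlh1 knockout array and within the Sohlh2 knockout range. The difference was 0.23 (SE 0.11, interval -0.01 to 0.47, adjusted p = 0.368, limma) in the Sohlh1 knockout and 0.18 (SE 0.11, interval -0.06 to 0.42, adjusted p = 0.530) in the Sohlh2 knockout. Nr5a1 is also active in Leydig cells, whose tested markers had a median of 0.02 and -0.23.

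Gata1, Nr0b1 and Sox8 completed the group. Gata1, a zinc finger factor, read 659, 925, 797 and 998 in wild type, 1105, 1123, 1252 and 623 in the Sohlh1 knockout and 1089, 534, 791 and 909 in the Sohlh2 knockout. The array labelled Sohlh1 knockout 5 was far below the rest of its group, and without the 2 arrays of doubted label the Sohlh1 knockout difference went from 0.25 to 0.47 (adjusted p = 0.162, limma). Nr0b1, a repressor that acts against Nr5a1, differed by 0.19 (interval -0.05 to 0.44) and -0.03 (interval -0.27 to 0.22). For Sox8, a relative of Sox9, the differences were 0.17 (interval -0.31 to 0.65) and -0.23 (interval -0.71 to 0.25).

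**Figure D2:**
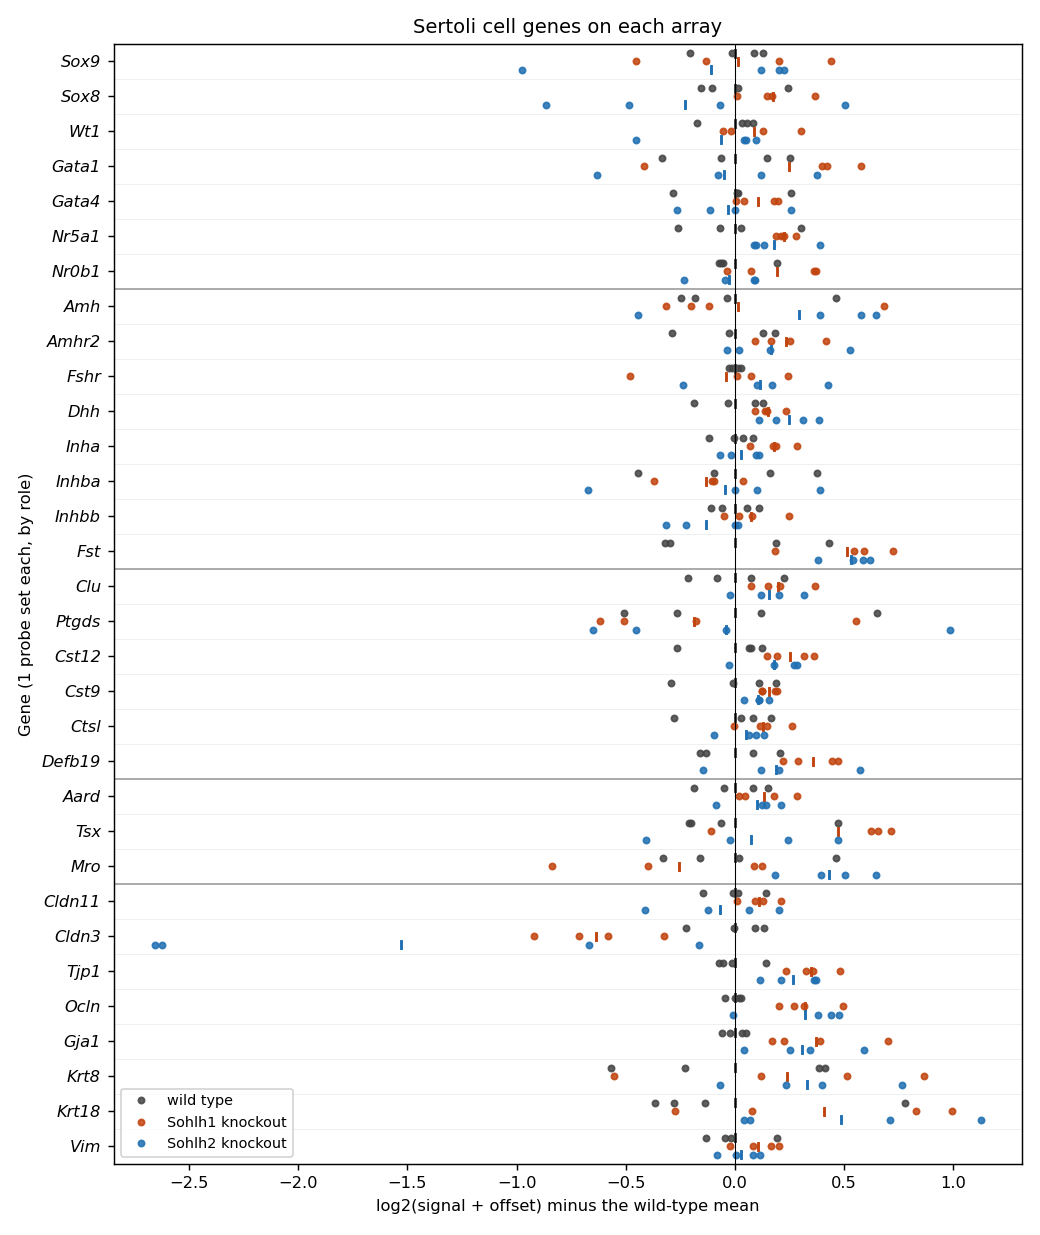
Each of the 32 Sertoli cell genes on each array, read by its brightest probe set, as log2(signal + offset) minus the wild-type mean; points are arrays, short bars are group means, and horizontal lines part the role groups. The knockout points of Tjp1, Ocln, Gja1 and Fst lie mostly to the right of 0, those of the transcription factors lie on both sides, and Cldn3 has 2 Sohlh2 knockout points far to the left.

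Among hormones and their receptors, 6 of 8 genes lay above wild type in each knockout (7 in the Sohlh1 knockout after median centring, 5 in the Sohlh2 knockout after quantile normalization), with medians of 0.11 and 0.14. None passed the test. Follistatin, Fst, which binds and blocks activin, had the smallest p of the group in both comparisons.

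Fst read 342, 287, 198 and 201 in wild type, 286, 372, 385 and 423 in the Sohlh1 knockout and 330, 392, 370 and 383 in the Sohlh2 knockout. Of the 8 knockout arrays, 6 lay above the highest wild-type array, and the groups overlapped through 1 array in each knockout. The log2 difference was 0.51 (SE 0.18, interval 0.13 to 0.89, adjusted p = 0.176, limma) and 0.53 (SE 0.18, interval 0.15 to 0.91, adjusted p = 0.184). A second Fst probe set, 1421365_at, gave -0.04 (SE 0.31) and 0.26 (SE 0.31), so the 2 probe sets differed in sign in the Sohlh1 knockout.

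Amh read 808, 488, 510 and 567 in wild type, 941, 464, 504 and 535 in the Sohlh1 knockout and 918, 874, 424 and 766 in the Sohlh2 knockout. Each group held both low and high arrays. The difference was 0.01 (interval -0.53 to 0.56) in the Sohlh1 knockout and 0.29 (interval -0.25 to 0.84) in the Sohlh2 knockout. Without Sohlh1 knockout 2 the former was -0.21.

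Amhr2, the receptor for Amh, is given in full for its high mean signal, which sets no order of transcript levels between genes. Its values were 13170, 15758, 17574 and 18280 in wild type, 21451, 19127, 18034 and 17158 in the Sohlh1 knockout and 23133, 15674, 17973 and 16264 in the Sohlh2 knockout. The 2 arrays with high control ratios were the highest, and the rest overlapped. The difference was 0.23 (interval -0.05 to 0.51) and 0.17 (interval -0.11 to 0.45), and its other 2 probe sets had the same sign in both comparisons.

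Fshr, the receptor for follicle-stimulating hormone, read 647, 642, 629 and 623 in wild type, 452, 755, 670 and 639 in the Sohlh1 knockout and 536, 859, 717 and 683 in the Sohlh2 knockout. Wild type was tight, and the lowest value of each knockout lay on the array with the high control ratio. The difference was -0.04 (interval -0.38 to 0.30) and 0.11 (interval -0.22 to 0.45). The Sohlh1 knockout difference of Fshr was 0.11 without Sohlh1 knockout 2 and 0.01 after median centring, so its sign was not settled.

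The other secreted signals of the Sertoli cell did not pass the test either. Dhh, the Hedgehog ligand that signals to Leydig and peritubular cells, read 7066, 6876, 6309 and 5663 in wild type, 6883, 7145, 7108 and 7595 in the Sohlh1 knockout and 8448, 6959, 8012 and 7350 in the Sohlh2 knockout. Its difference was 0.15 (interval -0.04 to 0.34) and 0.25 (interval 0.06 to 0.44, adjusted p = 0.225, limma). The second Dhh probe set, 1422127_at, gave 0.01 (SE 0.28) and -0.25 (SE 0.28), the opposite sign in the Sohlh2 knockout. Inha, the α subunit of inhibin, differed by 0.18 (interval 0.01 to 0.35, adjusted p = 0.294) in the Sohlh1 knockout and 0.03 (interval -0.14 to 0.20) in the Sohlh2 knockout. The β subunits, shared by inhibins and activins, gave -0.13 and -0.05 for Inhba and 0.07 and -0.13 for Inhbb, each with an interval across 0. Without the array labelled Sohlh2 knockout 1, Inhba was 0.16 in the Sohlh2 knockout. The second Inhbb probe set, 1426859_at, gave -0.08 and -0.19.

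Genes of the pathways around these signals were counted from lists, 1 probe set per gene. None of 17 genes of activin, inhibin and AMH signalling passed the test in either knockout, and their medians were 0.14 and 0.07. The same held for 13 genes of FSH and cAMP signalling, with medians of 0.12 and 0.05, and for 7 of 8 Hedgehog pathway genes that were tested, with medians of 0.08 and 0.05. At an unadjusted p under 0.05 these lists had 2, 0 and 0 genes higher and 1, 0 and 0 lower in the Sohlh1 knockout. In the Sohlh2 knockout they had 3, 0 and 0 higher and 1, 0 and 2 lower. Of all tested probe sets, 6.99% were higher and 7.95% lower in the Sohlh1 knockout, and 6.43% and 7.06% in the Sohlh2 knockout.

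Secreted proteins and proteases lay above wild type in 5 of 6 genes in each knockout (4 in the Sohlh2 knockout after quantile normalization), with medians of 0.18 and 0.13. By brightest probe sets, Defb19, a β-defensin of Sertoli cells, had the smallest p in the Sohlh1 knockout. It read 7940, 9217, 7784 and 10057 in wild type, 12069, 10132, 11860 and 10640 in the Sohlh1 knockout and 12932, 7865, 10000 and 9457 in the Sohlh2 knockout. The Sohlh1 knockout arrays all lay above wild type, the closest by little, and the Sohlh2 knockout arrays did not. The difference was 0.36 (SE 0.13, interval 0.07 to 0.64, adjusted p = 0.213, limma) and 0.19 (SE 0.13, interval -0.10 to 0.47). With the array numbers as a block, the Sohlh1 knockout difference of Defb19 was 0.39 and passed the test. The adjusted p was 0.0335 with 3-1 counted as 3, and 0.0348 with it as a number of its own (limma). Arrays whose number no other array holds do not enter that difference. Here these were wild type 6 and Sohlh1 knockout 2, each the highest of its group by Defb19.

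Cst12, a cystatin-family gene, read 20272, 25517, 25669 and 26553 in wild type, 31291, 26997, 30326 and 27853 in the Sohlh1 knockout and 29650, 27626, 29448 and 23930 in the Sohlh2 knockout. All Sohlh1 knockout arrays lay above wild type, and wild type 3 was low. The difference was 0.25 (SE 0.10, interval 0.04 to 0.47, adjusted p = 0.246, limma) and 0.18 (SE 0.10, interval -0.04 to 0.39).

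Clu, the secreted chaperone clusterin, was measured by 4 probe sets. The first by mean signal read 29221, 32051, 35774 and 39624 in wild type, 43735, 37736, 39150 and 35675 in the Sohlh1 knockout and 42302, 36874, 39060 and 33450 in the Sohlh2 knockout. The groups overlapped. The difference was 0.20 (interval -0.03 to 0.42) and 0.15 (interval -0.07 to 0.38), and all 4 Clu probe sets had a positive difference in both comparisons. Of them, only 1418626_a_at had Sohlh1 knockout arrays all above wild type (0.25, adjusted p = 0.168, limma).

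Cst9, Ctsl and Ptgds were the rest of the group. Cst9, a cystatin-family relative of Cst12, differed by 0.16 (interval -0.04 to 0.36) and 0.10 (interval -0.09 to 0.30). For the protease cathepsin L, Ctsl, the differences were 0.13 (interval -0.08 to 0.34) and 0.05 (interval -0.16 to 0.26), the latter -0.05 after quantile normalization. Ptgds, prostaglandin D synthase, gave -0.19 and -0.04 with wide intervals (-0.92 to 0.54 and -0.77 to 0.69). With the array labelled Sohlh2 knockout 1 left out, its Sohlh2 knockout difference became 0.16. The second Ptgds probe set, 1423860_at, gave -0.35 and 0.12.

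The transcripts known mainly as markers were Aard, Tsx and Mro. Aard read 23564, 25859, 28381 and 29789 in wild type, 32649, 27129, 30302 and 27706 in the Sohlh1 knockout and 31062, 29591, 29232 and 25269 in the Sohlh2 knockout. The groups overlapped, with differences of 0.13 (interval -0.07 to 0.34) and 0.10 (interval -0.11 to 0.31).

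Tsx, an X-linked testis transcript, read 108, 109, 121 and 182 in wild type, 204, 217, 208 and 117 in the Sohlh1 knockout and 153, 92.2, 182 and 125 in the Sohlh2 knockout. Of the Sohlh1 knockout arrays, 3 lay above all of wild type, and the array labelled Sohlh1 knockout 5 lay within it. The difference was 0.47 (SE 0.24, interval -0.05 to 0.99, adjusted p = 0.385, limma) and 0.07 (SE 0.24, interval -0.45 to 0.59).

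Mro, named maestro and active in the developing male gonad, was the member whose knockouts differed most from each other by p. It read 806, 709, 630 and 1101 in wild type, 866, 599, 439 and 843 in the Sohlh1 knockout and 1249, 1131, 1049 and 903 in the Sohlh2 knockout. Every Sohlh2 knockout array lay above every Sohlh1 knockout array, and wild type overlapped both. The difference from wild type was -0.26 (interval -0.70 to 0.19) in the Sohlh1 knockout and 0.43 (interval -0.02 to 0.88, adjusted p = 0.391, limma) in the Sohlh2 knockout. The direct difference, Sohlh2 knockout minus Sohlh1 knockout, was 0.69 (SE 0.21, interval 0.24 to 1.13), with an unadjusted p of 0.00521 by limma and an adjusted p of 1.00. It ranked 58 of 28694 probe sets.

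With all 12 arrays, junction and cytoskeleton genes had the highest role medians, 0.28 in the Sohlh1 knockout and 0.29 in the Sohlh2 knockout. Without the 2 arrays with high control ratios the Sohlh1 knockout median was 0.178, against 0.170 for the transcription factors. Without all 3 arrays of doubted label or high control ratio it was 0.215, against 0.217, with 6 of 8 genes above wild type. In the Sohlh2 knockout it was 0.26 under these removals, still the highest. Of the 8 genes, with all 12 arrays, 7 lay above wild type in the Sohlh1 knockout and 6 in the Sohlh2 knockout (5 after quantile normalization). None passed the test with all 12 arrays. Of the 7 member probe sets whose Sohlh1 knockout arrays all lay above wild type, 4 belonged here (Tjp1, Ocln with 2 and Gja1), and the others were Defb19, Cst12 and 1 of Clu. Such separation upward held for 12.3% of member probe sets and for 5.07% of all tested. In the Sohlh2 knockout it held for 2 member probe sets (3.51%, against 4.14% of all tested), 1 of Ocln and 1 of Sox9. Separation downward held there for 0 member probe sets, against 4.69% of all tested.

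Tjp1 encodes ZO-1, the scaffold under tight junctions, and had the smallest p of all members. It read 3615, 3514, 4033 and 3478 in wild type, 4691, 5113, 4584 and 4301 in the Sohlh1 knockout and 3961, 4233, 4724 and 4706 in the Sohlh2 knockout. The group means were 3660 ± 255, 4672 ± 337 and 4406 ± 374 (SD, n = 4 each). All Sohlh1 knockout arrays lay above wild type, while 1 Sohlh2 knockout array fell inside the wild-type range. The log2 difference was 0.35 (SE 0.09, interval 0.16 to 0.54, adjusted p = 0.0572, limma), or 1.28-fold, in the Sohlh1 knockout and 0.27 (SE 0.09, interval 0.08 to 0.45, adjusted p = 0.187), or 1.20-fold, in the Sohlh2 knockout. Tjp1 missed the threshold narrowly: without the 2 arrays of doubted label, the Sohlh1 knockout difference was 0.39 with an adjusted p of 0.0280. Without the 2 arrays with high control ratios it was 0.35 with an adjusted p of 0.0336, and with 1 probe set per gene the adjusted p was 0.0314. Tjp1 did not pass after quantile normalization, with another offset, or without the filter or the trend. Nor did it pass in fits of 2 groups or under either replicate block. Among single-array removals it passed only without Sohlh2 knockout 1, where the difference stayed 0.35.

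Ocln encodes occludin, a membrane protein of tight junctions. Its brighter probe set, 1448873_at, read 1765, 1712, 1787 and 1801 in wild type, 2032, 2134, 2203 and 2496 in the Sohlh1 knockout and 1756, 2401, 2304 and 2467 in the Sohlh2 knockout. Of the 8 knockout arrays, 7 lay above every wild-type array, and the exception was the array labelled Sohlh2 knockout 1, which also had the highest control ratio. The difference was 0.32 in each knockout (SE 0.11, adjusted p = 0.166 in the Sohlh1 knockout and 0.190 in the Sohlh2 knockout, limma). Without the 2 arrays with high control ratios, Ocln was 0.36 higher in the Sohlh1 knockout (adjusted p = 0.0200, limma), and in the Sohlh2 knockout the adjusted p was 0.00900. Without the 2 arrays of doubted label, the Sohlh2 knockout difference was 0.43 with an adjusted p of 0.0140, while Ocln did not pass in the Sohlh1 knockout. In neither knockout did Ocln pass under a change of offset, scaling, filter or probe sets.

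The second Ocln probe set, 1440220_at, read 558, 519, 496 and 455 in wild type, 633, 663, 803 and 649 in the Sohlh1 knockout and 664, 606, 643 and 603 in the Sohlh2 knockout. All 8 knockout arrays lay above all wild-type arrays. The difference was 0.43 (SE 0.11, interval 0.19 to 0.66, adjusted p = 0.0614, limma) and 0.31 (SE 0.11, interval 0.07 to 0.54, adjusted p = 0.218). Without the 2 arrays with high control ratios the Sohlh1 knockout difference of 1440220_at was 0.46 with an adjusted p of 0.0351. Both probe sets of Ocln thus had the same sign in both knockouts.

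Gja1 encodes connexin 43, the main gap junction protein of Sertoli cells, and was read by 6 probe sets. The brightest, 1437992_x_at, read 13689, 13858, 13168 and 12865 in wild type, 21786, 15659, 17530 and 15055 in the Sohlh1 knockout and 20203, 15954, 17011 and 13804 in the Sohlh2 knockout. In each knockout the highest value lay on the array with the high control ratio. The difference was 0.37 (SE 0.12, interval 0.11 to 0.64, adjusted p = 0.161, limma) and 0.31 (SE 0.12, interval 0.04 to 0.57, adjusted p = 0.282). Without the 2 arrays of doubted label, the Sohlh1 knockout difference of Gja1 was 0.44 with an adjusted p of 0.0447. Gja1 passed under no other alternative. For the other Gja1 probe sets, 4 had positive differences in both comparisons, from 0.18 to 0.79, and 1 had negative ones.

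That probe set, Gja1 1415801_at, read 1726, 1882, 2557 and 2515 in wild type, 823, 2650, 2088 and 1540 in the Sohlh1 knockout and 230, 2672, 2791 and 2806 in the Sohlh2 knockout. Its values on the arrays with high control ratios were by far the lowest of their groups. The difference was -0.39 (SE 0.62) and -0.51 (SE 0.62).

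**Figure D3:**
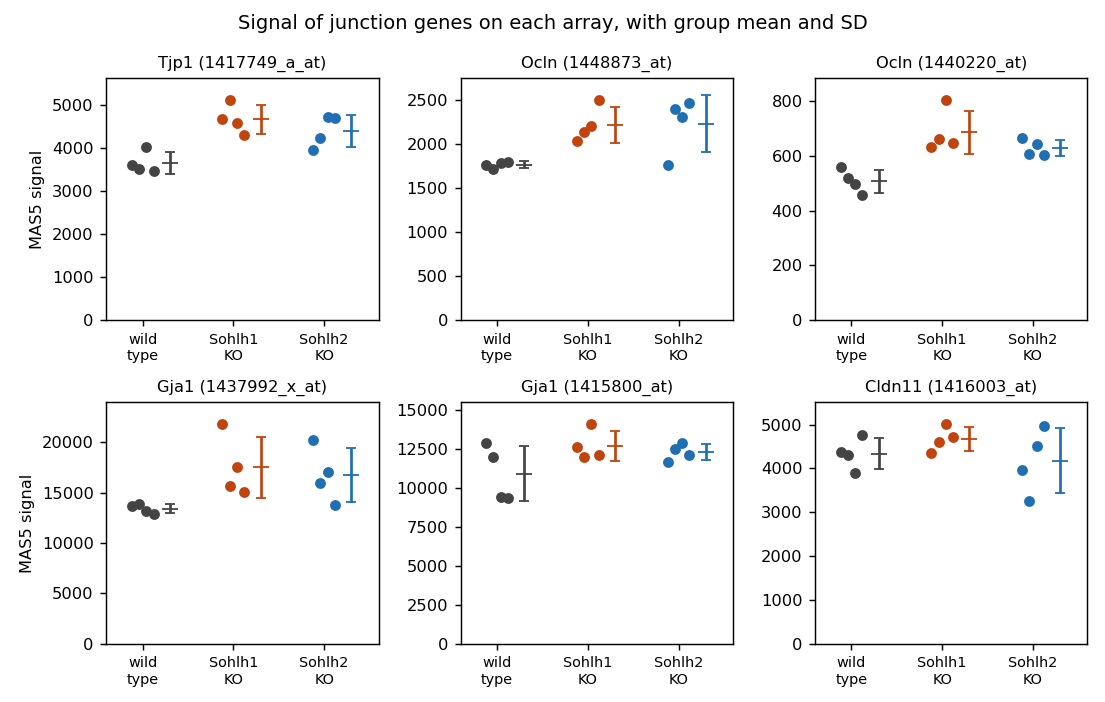
MAS5 signal of 6 probe sets of junction genes on each array (points), with the mean and SD of each group of 4 beside them; KO, knockout. For Ocln 1440220_at the 8 knockout points, from 603 to 803, lie above the wild-type points, which end at 558, while the Cldn11 groups overlap.

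Cldn11 and Cldn3 are claudins, the strand-forming proteins of tight junctions. Cldn11, the claudin needed for the blood-testis barrier, read 4368, 4304, 3903 and 4775 in wild type, 4362, 4608, 5013 and 4727 in the Sohlh1 knockout and 3969, 3250, 4519 and 4974 in the Sohlh2 knockout. The groups overlapped, with differences of 0.11 (interval -0.14 to 0.36) and -0.07 (interval -0.32 to 0.18).

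Cldn3, a claudin that responds to androgen in Sertoli cells, read close to the filter value of 48.6 on several arrays. Its brightest probe set, 1434651_a_at, read 147, 187, 174 and 192 in wild type, 112, 136, 85.4 and 101 in the Sohlh1 knockout and 15.7, 104, 16.4 and 154 in the Sohlh2 knockout. All Sohlh1 knockout arrays lay below wild type, and in the Sohlh2 knockout 2 arrays lay far lower and 1 within the wild-type range. The difference was -0.63 (SE 0.46, interval -1.61 to 0.34, adjusted p = 0.555, limma) and -1.53 (SE 0.46, interval -2.51 to -0.55, adjusted p = 0.133). Without Sohlh2 knockout 5 the latter was -1.98 with an adjusted p of 0.0311. Cldn3 passed under no other alternative.

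The 4 Cldn3 probe sets did not share a direction in the Sohlh1 knockout. There, the other 3 gave 0.57 (1460569_x_at), -0.96 (1451701_x_at) and 0.14 (1426332_a_at). In the Sohlh2 knockout all 4 were negative, from -1.53 to -0.36. For 2 of the 4, all Sohlh1 knockout arrays lay below wild type, which made up the whole of such separation downward among members (3.51%, against 6.08% of all tested).

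Of the intermediate filament genes, Vim read 23612, 25026, 25529 and 29576 in wild type, 29768, 27401, 28981 and 25479 in the Sohlh1 knockout and 25901, 27961, 27380 and 24413 in the Sohlh2 knockout. Vim, vimentin of the Sertoli cytoskeleton and of other somatic cells, differed by 0.11 (interval -0.08 to 0.29) and 0.03 (interval -0.16 to 0.21), the latter -0.07 after quantile normalization. The keratins Krt8 and Krt18, which are lost as Sertoli cells mature, gave 0.24 and 0.33 for Krt8 and 0.41 and 0.49 for Krt18, all with intervals across 0. The Sohlh1 knockout difference of Krt8 was -0.02 without all 3 arrays of doubted label or high control ratio. The other Krt8 probe sets gave -0.03 and 0.25 (1423691_x_at) and -0.34 and -0.10 (1435989_x_at).

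**Figure D4:**
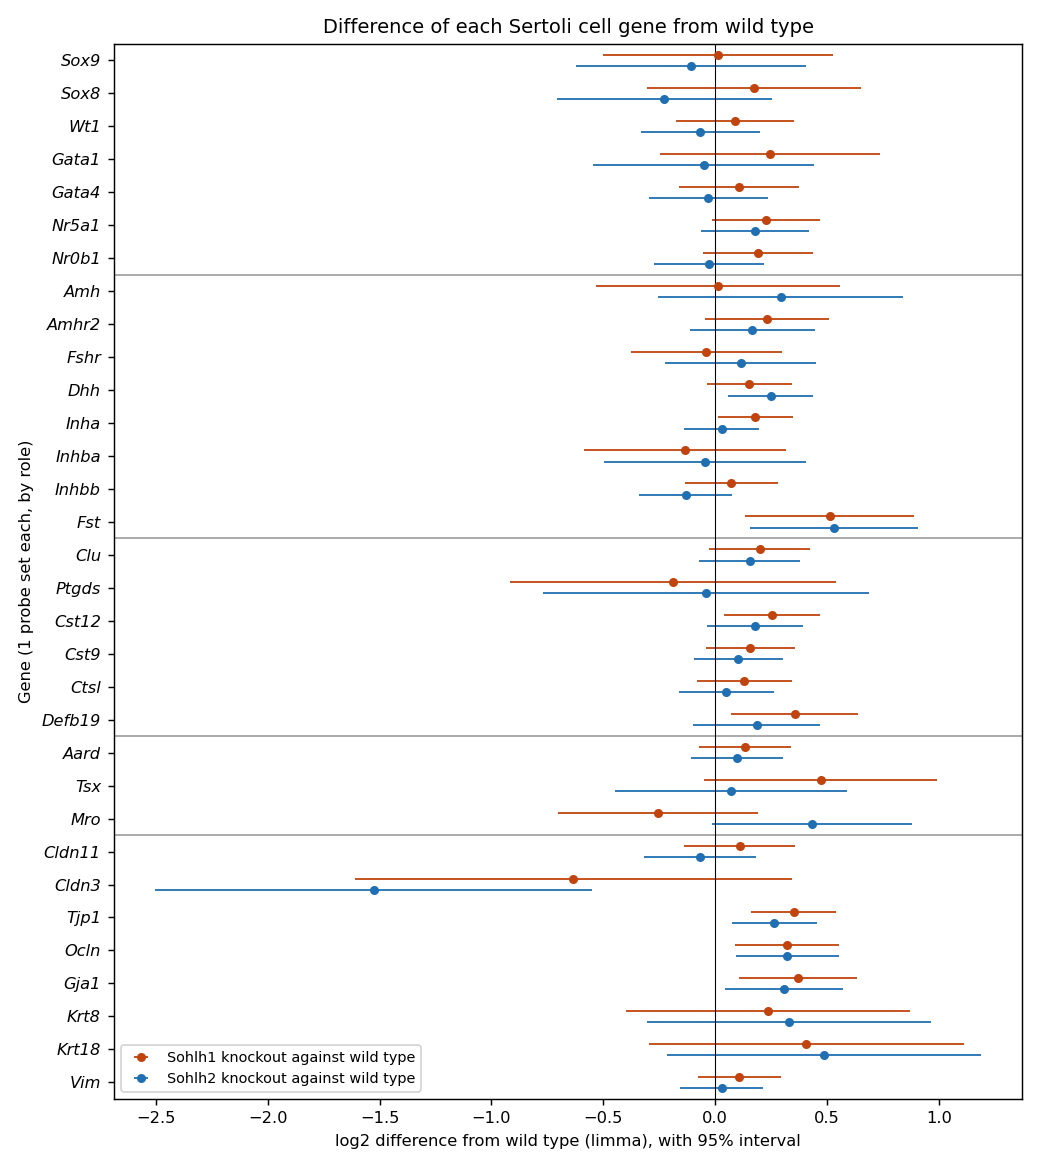
Log2 difference from wild type of each of the 32 genes in the Sohlh1 knockout (orange) and the Sohlh2 knockout (blue), with 95% intervals from limma; both use the same 4 wild-type arrays. Intervals of Tjp1, Ocln, Gja1 and Fst lie above 0 in both comparisons, and none of these 4 passed the adjusted threshold with all 12 arrays in the fit.

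In a list of 19 other junction genes, 18 were tested and none passed, with medians of 0.08 in the Sohlh1 knockout and 0.11 in the Sohlh2 knockout. At an unadjusted p under 0.05, 1 was higher (5.56%) and 2 were lower (11.1%) in the former. In the latter 1 was higher and 1 lower (5.56% each). Over all tested probe sets, 6.99% were higher and 7.95% lower in the Sohlh1 knockout, and 6.43% and 7.06% in the Sohlh2 knockout. A list of 25 other Sertoli genes, of which 19 were tested, had medians of 0.19 in each knockout. At an unadjusted p under 0.05, 3 of these 19 were higher (15.8%) and 2 lower (10.5%) in the Sohlh1 knockout. In the Sohlh2 knockout 0 of the 19 in this list were higher and 3 were lower (15.8%). From it, Dmrt1 fell by 0.32 in the Sohlh2 knockout (SE 0.07, adjusted p = 0.0352, limma). Dmrt1, a factor of Sertoli cells and also of spermatogonia, had means of 11847 ± 398 in wild type and 9480 ± 570 in the Sohlh2 knockout (SD, n = 4 each). Its Sohlh1 knockout difference was -0.28 (SE 0.07, adjusted p = 0.0627). The Dmrt1 call in the Sohlh2 knockout did not hold under 15 of 28 alternatives, among them the removal of the 2 arrays of doubted label and of 9 single arrays in turn, and the adjusted p reached 0.169.

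Markers of other cells in the testis were counted the same way. None of 4 tested Leydig cell genes, 6 peritubular myoid genes, 6 endothelial genes and 5 macrophage genes passed the test in either knockout. Their summed signals overlapped wild type in both knockouts, as with 10254 to 12615 for the Leydig genes in wild type against 10966 to 12481 and 9493 to 11875. At an unadjusted p under 0.05 (limma), 2 myoid genes were lower in each knockout (33.3%, against 7.95% and 7.06% of all tested). No Leydig, endothelial or macrophage gene passed at that level. All Sohlh2 knockout arrays lay below wild type for 2 myoid genes (33.3%, against 4.69% of all tested), and all Sohlh1 knockout arrays for 1 (16.7%, against 6.08%). All 4 Leydig genes lay below wild type in the Sohlh2 knockout, and 2 did in the Sohlh1 knockout. In the list for epididymis and rete testis Epcam, an adhesion gene also present in spermatogonia, fell by 0.79 in the Sohlh1 knockout (adjusted p = 0.00694, limma) and by 0.96 in the Sohlh2 knockout (adjusted p = 0.00204). The 4 tested genes of that list did not share a direction. At an unadjusted p under 0.05 (limma), 1 was higher and 1 lower in each knockout (25% each). Of all tested, 6.99% were higher and 7.95% lower in the Sohlh1 knockout, and 6.43% and 7.06% in the Sohlh2 knockout. The highest differences in the list were 0.46 in the Sohlh1 knockout and 0.57 in the Sohlh2 knockout, and 3 and 2 of the 4 lay below wild type. The summed signal of the list was 1534 to 1921 in wild type, 892 to 1197 in the Sohlh1 knockout and 943 to 1170 in the Sohlh2 knockout. Its part in the Sertoli gene values was not tested.

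The knockouts were also set against each other directly. Of 57 member probe sets 0 passed the test, as did 0 of all 28694 (0%). At an unadjusted p under 0.05, 1 member probe set was higher in the Sohlh2 knockout (Mro) and 1 was lower (Cldn3 1460569_x_at, -1.15, SE 0.41), against 1.53% and 1.14% of all tested. The median was -0.06, against -0.001 over all tested, and 16 of 57 lay above 0, against 49.7%. With the 2 arrays of doubted label left out this median became -0.10, and with Sohlh2 knockout 5 left out it became -0.03. Of all 28694, 9 passed without the arrays of doubted label and 11 without all 3 arrays of doubted label or high control ratio, none of them members. Mro was the 1 member probe set whose Sohlh2 knockout arrays all lay above the Sohlh1 knockout arrays, against 0.979% of all tested, and 0 lay all below, against 0.917%. All 7 transcription factors were lower in the Sohlh2 knockout than in the Sohlh1 knockout under each scaling, with a median of -0.16, and none passed. Without the array labelled Sohlh2 knockout 1, 6 of the 7 were lower, with a median of -0.12, and without the 2 arrays of doubted label 5 were.

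Several low values of the Sohlh2 knockout came from 1 array. On the array labelled Sohlh2 knockout 1, 8 of 57 member probe sets (14.0%) lay more than 1 log2 unit below the mean of the other arrays of the group, against 8.94% of all tested. The lowest were Gja1 1415801_at at -3.51, Gata4 1418864_at at -1.94, Cldn3 1434651_a_at at -1.51 and Dhh 1422127_at at -1.43. For Gja1, Gata4 and Dhh, the probe set that represents the gene was not among the 8. On Sohlh1 knockout 2 the count was 2 of 57 (3.51%), against 3.94% of all tested. The position of these probe sets along their transcripts was not analysed here, and the part of RNA length in these values was not tested.

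**Figure D5:**
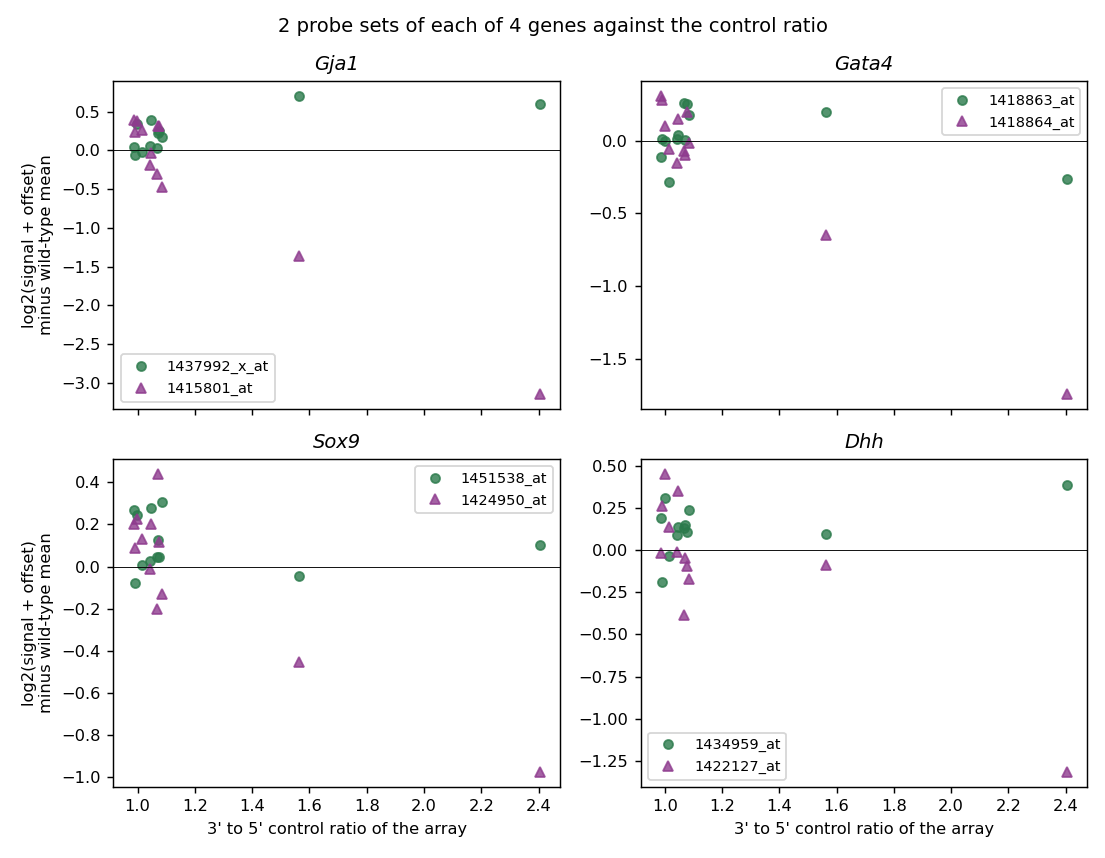
For Gja1, Gata4, Sox9 and Dhh, 2 probe sets each (circles and triangles) on the 12 arrays, as log2(signal + offset) minus the wild-type mean, against the array's ratio of 3′ to 5′ control signal. On the array with a ratio of 2.41 the triangle lies lowest for each gene, while the circles of Gja1, Sox9 and Dhh lie above 0 there.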

How the data were processed

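Whole testis RNA from pools of 3 testes was measured on 12 arrays, per the labels' protocols. The deposited values are linear signal intensities made by the authors. The submitters' processing notes name GCOS and MAS5, without versions in the sources used here. The deposited table shows 1 trimmed mean on all arrays (2% removed at each end), with array medians of 76.6 to 90.7. The number of arrays limits the precision.

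Intensities were taken as log2(signal + 14.2), where 14.2 is the 20th percentile, with no further normalization. Differences of dim genes are understated on this scale. Tests left out 64 control probe sets and those that exceeded 48.6, the 40th percentile, on fewer than 4 of 12 arrays. Symbols came from the platform annotation, with exactly 1 symbol for 34945 probe sets, several for 932 and none for the rest. Groups and numbers came from the sample titles. Genotypes were compared with limma 3.58.1 in R 4.3.3 (1 fit of 12 arrays, eBayes with trend, two-sided, Benjamini-Hochberg over all probe sets tested), and figures were drawn with matplotlib 3.10.9. The code was tested on simulated data. Each alternative changed the offset, scaling, filter, probe sets, arrays or model terms. A replicate block in effect leaves out each array whose number no other array holds. With 3-1 as 3 these were wild type 6, Sohlh1 knockout 2 and Sohlh2 knockout 1. With 3-1 as its own number, Sohlh2 knockout 3-1 was left out as well.

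A gene was described by its brightest tested probe set, with others where direction or call differed. Values on every array were given for members that changed, for the smallest p and highest mean in each role group, and for Sox9, Amh, Fshr, Gata4 and Wt1. Those of Ocln, Gja1, Gata1, Dhh and Cldn11 were added after their values were seen. From other lists, changed genes were named. The members and lists were chosen with earlier results of these data known. Promoter windows were matched by symbol for 22 of 33 genes.

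Same-numbered arrays of different groups did not deviate together (correlations from -0.12 to 0.10), so the numbers were not used as pairs.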

Additional observations from a re-analysis of the deposited data

Results flagged for a closer look

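In 96 groups of 4 arrays, 1 per gene and genotype, 6 held an array far from the other 3 by Dixon's criterion on the log2 scale. Chance gives about 1 in 20 groups. Sox9 on the array labelled Sohlh2 knockout 1 read 885, against 1903 to 2050 on the rest of its group. Wt1 on that array read 2635, against 3707 to 3863. Nr5a1 on the same array was high, at 2740 against 2217 to 2290. Nr0b1 was high on wild type 6, at 2383 against 1979 to 2008. Cst12 was low on wild type 3, at 20272 against 25517 to 26553. Tsx on the array labelled Sohlh1 knockout 5 read 117, against 204 to 217.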

How the results depend on the processing

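Against 0 member probe sets passing in the Sohlh1 knockout, 1 passed after median centring, with the filter on all 12 arrays, with 1 probe set per gene, without _s_at and _x_at probe sets, under either replicate block (Defb19) and without all 3 arrays of doubted label or high control ratio. In these settings 1.18% to 4.41% of all tested passed, against 2.09% in the main fit. In the same comparison 2 passed without the 2 arrays of doubted label, 3 without the 2 arrays of high control ratio and 3 with that ratio as a covariate. Of all tested, 3%, 3.45% and 4.29% passed in the same order. Leaving out single arrays gave 0 to 3, with 3 only without Sohlh2 knockout 1 (4.31% of all tested). In the Sohlh2 knockout 1 passed with the replicate block that counts 3-1 as 3, under each of the 3 removals and with the covariate. From the Sohlh2 knockout group, each removal took only the array labelled Sohlh2 knockout 1. That block leaves out the same array in effect, so these settings are not separate checks. In these settings 1.4% to 2.75% of all tested passed, against 1.55% in the main fit. Leaving out single arrays gave 0 to 1, with 1 without Sohlh2 knockout 1 (Ocln) or 5 (Cldn3). Of all tested, 1.75% and 0.965% passed there. The Sohlh1 knockout median was 0.11 after quantile normalization and 0.21 after median centring, against 0.02 and 0.04 over all tested. The Sohlh2 knockout median ran from 0.082 to 0.19 when single arrays were left out. The comparison of the knockouts with each other kept 0 calls among member probe sets.

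Among single genes, 1746 of the alternative values kept direction and call, 22 passed the threshold and 78 changed sign. Many of the 1746 could not change sign. A change of filter, probe sets or trend, or the removal of an array outside the comparison, leaves the log2 difference as it was. A threshold of 0.01, also counted, could add no call. In the Sohlh1 knockout, Amh was -0.22 with either replicate block, -0.21 without the high-ratio arrays, -0.26 without all 3 and -0.11 with the covariate. Fshr was 0.00705 after median centring, and 0.099 with either block, 0.11, 0.16 and 0.052 in the same order. Krt8 was -0.16 with either block and -0.0195 without all 3.

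In the Sohlh2 knockout, the blocks (3-1 as 3, then as its own number), each of the 3 removals, and the covariate gave 0.21, 0.27, 0.18 and 0.18 for Sox9, 0.082, 0.080, 0.063 and 0.052 for Wt1, and 0.13, 0.095, 0.16 and 0.14 for Inhba. Gata4 was 0.00574 after median centring, 0.052 with the first block, 0.047 under the removals and 0.011 with the covariate. Nr0b1 was 0.011 after median centring, and 0.045 and 0.21 with the blocks. Ptgds was 0.16 under the removals and 0.080 with the covariate. The second block gave 0.10 for Gata1 and 0.18 for Cldn11. Of the Sohlh2 knockout arrays, only 3-1, 4 and 5 enter the difference under the first block, and only 4 and 5 under the second. Quantile normalization gave -0.030 for Inha, -0.046 for Ctsl and -0.067 for Vim.

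With single arrays left out, the Sohlh1 knockout difference ran from -0.13 to 0.17 for Sox9, from -0.21 to 0.17 for Amh, from -0.13 to 0.11 for Fshr and from -0.44 to 0.029 for Ptgds. The Sohlh2 knockout difference ran from -0.22 to 0.18 for Sox9, -0.12 to 0.063 for Wt1, -0.20 to 0.14 for Gata1, -0.13 to 0.056 for Gata4 and -0.064 to 0.044 for Nr0b1. It ran from -0.00907 to 0.064 for Inha, -0.19 to 0.16 for Inhba, -0.38 to 0.18 for Ptgds, -0.0435 to 0.11 for Ctsl, -0.062 to 0.23 for Tsx, -0.16 to 0.046 for Cldn11 and -0.014 to 0.094 for Vim. The cause of these moves was not tested.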
